A study of Homo sapiens with 3 samples.

Results

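The regions are 51 stretches of chromosome arm (31 Mb) that H3K27me3 peaks partly covered in control cells and barely covered in siORCA cells. Each is a chain of 5 or more neighbouring 100 kb bins, and in every bin siORCA peaks covered less than 2% of the length while control peaks covered 5% or more. Centromeres and their surroundings, acrocentric short arms, and the whole of chromosomes 19, 20 and X were left out. With those included, the same limits gave 78 stretches. The stretches were chosen on the coverage of both lists, so the difference in coverage between siORCA and control is how they were found and not a result about them.

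The series profiled U2OS cells, a human osteosarcoma line, by ChIP-seq for H3K27me3. It holds 3 libraries of the same batch: a ChIP after transfection with siORCA, a ChIP after transfection with a control named Gl3, and an input from cells with no treatment. All cells were fixed with 1% formaldehyde for 10 min and the libraries were read for 101 cycles from a single end. Each ChIP library has a list of broad peaks on T2T-CHM13, with 105729 peaks for siORCA and 181157 for the control, while the input and the level of ORCA were not analysed here. Since neither condition had a replicate, no difference below was tested, and the sources used here do not give the read depth of either library. A region with low siORCA coverage is therefore a region with little length in called peaks and was not shown to lack the mark.

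H3K27me3 is placed on histone H3 by Polycomb repressive complex 2, whose catalytic subunit is EZH2 or EZH1, and it is read by CBX proteins of Polycomb repressive complex 1. The mark spreads over silent developmental genes and over long gene-poor domains, so that its signal rises gently over long spans of DNA, and a peak caller breaks such a span into many separate peaks. ORCA, also called LRWD1, binds the origin recognition complex, the protein complex that marks replication origins, and is known to sit at heterochromatin. Peaks were not tied to genes, since the gene table at hand was on GRCh38, and the stretches are given by position on T2T-CHM13.

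Over the 51 stretches together, siORCA peaks covered 0.179 Mb (0.577%) and control peaks covered 4.17 Mb (13.5%), a ratio of siORCA to control of 0.0429. On the other arm bins siORCA covered 0.859% and the control 3.82%, a ratio of 0.225. The median bin, however, had more siORCA coverage in the stretches (0.439%) than on the other arms (0.102%), where median control coverage was also lower (10.3% in the stretches and 1.68% on the other arms). Other bins that reached the control limit were covered over 2.86% in siORCA and 12.9% in the control, so that the stretches were near them in control coverage and below them in siORCA coverage. Of all 24656 arm bins, 15.1% met both limits and 1.26% lay in the stretches. Among the 5357 arm bins with a control coverage of at least 5%, siORCA was under 2% in 69.4%. Low siORCA coverage was the common state of such bins, and the stretches are the places where several of them stood side by side.

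Across the stretches siORCA coverage ran from 0.0256% to 1.20%, with a median of 0.528%, and control coverage ran from 6.66% to 40.9%, with a median of 10.9%. Control coverage was under 10% in 22 stretches, from 10 to 20% in 24 and at least 20% in 5. Across the 51 stretches siORCA coverage tended to be higher where control coverage was higher (Spearman rho 0.447), a description over regions of the same 2 libraries and of values that the limits of the choice cut off in every bin. Most stretches were short: 23 spanned 5 bins, 16 spanned 6, 6 spanned 7, 3 spanned 8 and 3 spanned 11.

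**Figure D1:**
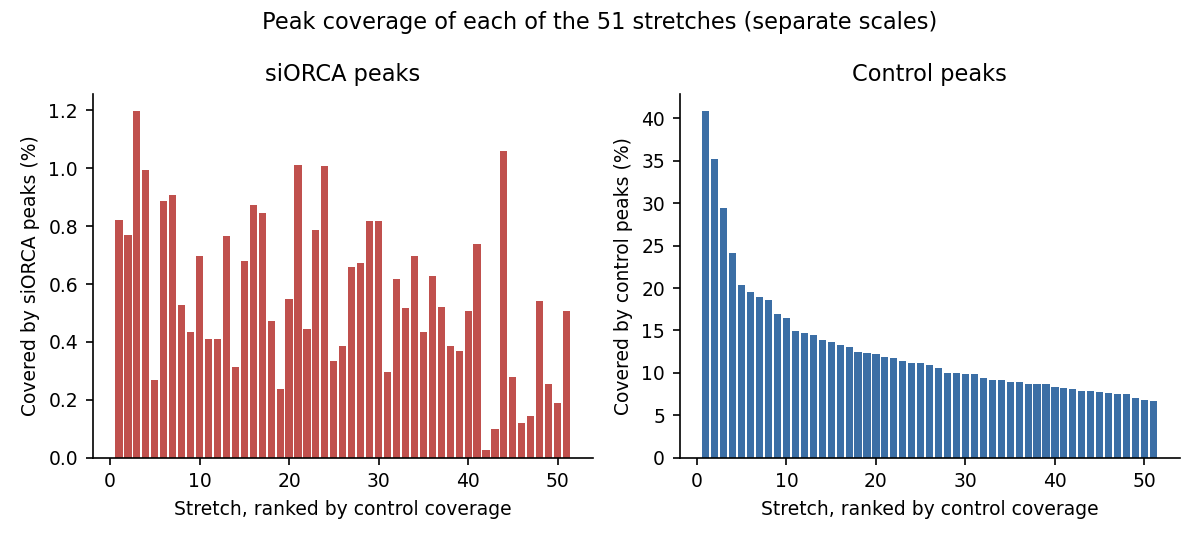
Percentage of each stretch covered by siORCA peaks (left) and by control peaks (right), with the 51 stretches in the same order, ranked by control coverage, on separate linear scales. siORCA bars lie between 0.0256% and 1.20%, and control bars between 6.66% and 40.9%.

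The bins that make up the stretches differed widely in control coverage. Of the 310 bins, 153 had a control coverage under 10% and 48 had at least 20%. siORCA peaks were absent from 68 bins (21.9%) and covered under 1% in 238. Bins with dense control coverage were rarely nearly empty in siORCA anywhere on the arms. siORCA was under 2% in 81.2% of the 3234 arm bins with a control coverage of 5 to 10%, in 65.4% of 1373 bins from 10 to 20%, in 37.4% of 358 bins from 20 to 30%, in 18.7% of 241 bins from 30 to 50%, and in 9.93% of 151 bins above that. The stretches hold 7 of the 15 nearly empty bins in that densest class. In those 7 bins siORCA covered 1.13% and the control 59.4% on average, while the 144 other bins of the class averaged 24.3% in siORCA and 68.6% in the control. The stretches admit only bins under 2% in siORCA, so this gap in siORCA coverage is set by the choice.

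**Figure D2:**
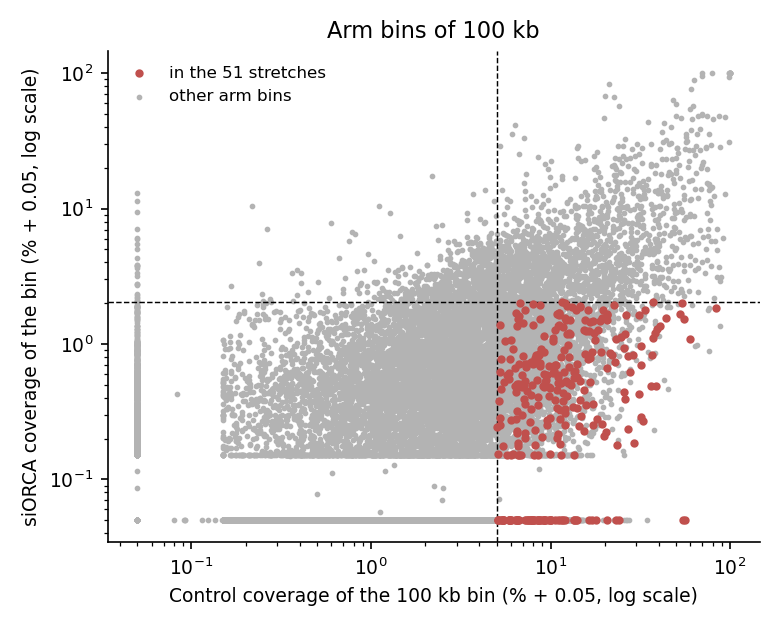
siORCA coverage against control coverage of each 100 kb arm bin, both on log scales after adding 0.05%, with dashed lines at the limits of 2% and 5%. The 310 bins of the stretches (red) fill the lower right field along with other arm bins that met both limits but lay in shorter runs, and the grey cloud climbs to high siORCA coverage where control coverage is highest.

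On the control side, the densest territory among the stretches lay near the tip of chromosome 4, from 0.1 to 0.7 Mb. siORCA peaks covered 4.93 kb there (12 peaks, 0.821%) and control peaks covered 245.2 kb (189 peaks, 40.9%). Joining peaks at most 3 kb apart, the control formed its longest domain of any stretch here, from 331950 to 491444, 159.5 kb long. siORCA covered 1.95 kb of that domain with 3 peaks and the control covered 99.3 kb with 66 peaks. A neighbouring control domain of 88.4 kb, from 239392 to 327819, held 0 siORCA peaks, and a further one of 76.6 kb held 1 siORCA peak. On its outer side the stretch stopped where siORCA coverage passed its limit, and on its inner side where control coverage fell under its own.

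The stretch on chromosome 16 from 25.9 to 27 Mb was the longest together with those on chromosome 5 from 2 to 3.1 Mb and on chromosome 8 from 131.7 to 132.8 Mb, each 1.1 Mb. On chromosome 16, siORCA covered 8.46 kb with 33 peaks and the control covered 387.4 kb with 405 peaks (35.2%), the most control length of any stretch. It held 4 of the 10 longest control domains, between 53.4 and 85.6 kb, and siORCA covered 0.9505 to 2.30% of each of these. On chromosome 5, siORCA covered 9.74 kb (0.885%) and the control 215.3 kb (19.6%), and the longest control domain was 35.8 kb. On chromosome 8, siORCA covered 5.57 kb (0.507%) and the control 92.3 kb (8.39%), with scattered control peaks and no domain above 11.2 kb. These 3 stretches of equal length differed widely in how densely the control covered them.

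**Figure D3:**
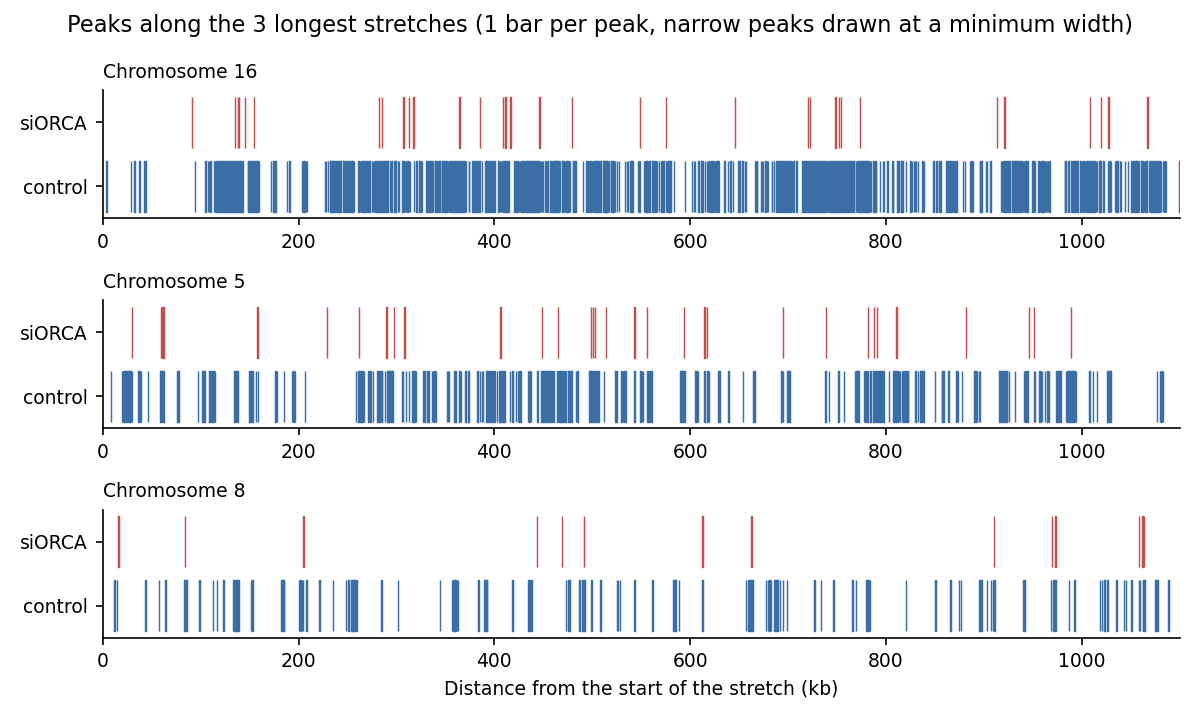
Peaks along the 3 stretches of 1.1 Mb, on chromosomes 16, 5 and 8, as distance from the start of each stretch in kb, with siORCA peaks above control peaks. Narrow peaks are drawn at a minimum width, which makes coverage look higher than the 0.769%, 0.885% and 0.507% in siORCA and the 35.2%, 19.6% and 8.39% in the control.

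The next longest stretches, of 0.8 Mb, were on chromosome 15 from 25.1 to 25.9 Mb and, on chromosome 14, at 75.9 to 76.7 Mb and 66.3 to 67.1 Mb. On chromosome 15 siORCA covered 0.433% and the control 16.96%, and the longest control domain, 31.0 kb, held 0 siORCA bases. From 75.9 Mb on chromosome 14 siORCA covered 0.698% and the control 16.5%, and 0.921 kb of siORCA peaks fell in a control domain of 32.6 kb. From 66.3 Mb siORCA covered 0.314% and the control 13.9%. Besides chromosomes 4 and 16, control coverage was highest on chromosome 1 from 226.6 to 227.2 Mb, with 1.20% in siORCA and 29.5% in the control. It was also high on chromosome 1 from 4.1 to 4.8 Mb, with 0.995% in siORCA and 24.1% in the control, and on chromosome 15 from 22 to 22.5 Mb, with 0.269% in siORCA and 20.3% in the control. The region at 226.6 Mb carried a control domain of 154.7 kb, from 226760569 to 226915278, with 1.26% of its length under siORCA peaks and 76.8% under control peaks. Inside it lay the widest control peak of all stretches, 22676 bp from 226831664 to 226854339 which had a fold of 3.33 and met 0 siORCA bases.

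Remaining siORCA coverage was highest in that same stretch on chromosome 1 (1.20%). It came next on chromosome 8 from 21.5 to 22.2 Mb, with 1.06% in siORCA and 7.84% in the control, the highest ratio of any stretch (0.135). The region of chromosome 7 from 99.6 to 100.1 Mb had 1.01% in siORCA and 11.9% in the control, and that of chromosome 22 from 33.1 to 33.7 Mb had 1.01% in siORCA and 11.2% in the control. At the low end, chromosome 14 from 62.5 to 63 Mb held a single siORCA peak of 128 bp (0.0256%), against 29 control peaks over 8.06%, a ratio of 0.00318. Chromosome 5 from 126.3 to 126.8 Mb held 2 siORCA peaks (0.100%) and 51 control peaks (7.92%). On chromosome 14 from 53.6 to 54.1 Mb siORCA covered 0.119% and the control 7.69%. The region of chromosome 1 from 41 to 41.5 Mb had 0.144% in siORCA and 7.56% in the control, and that of chromosome 14 from 60.7 to 61.3 Mb had 0.191% in siORCA and 6.81% in the control. The last 2 regions were also among the 5 with the lowest control coverage, along with those on chromosome 8 from 88.5 to 89 Mb (0.506% in siORCA and 6.66% in the control), chromosome 17 from 66.2 to 66.9 Mb (0.254% in siORCA and 7.08% in the control) and chromosome 9 from 104.8 to 105.3 Mb (0.543% in siORCA and 7.47% in the control).

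The stretches lay on 16 of the 20 chromosomes examined, and chromosomes 3, 6, 13 and 21 had 0. Chromosome 5 had 7 stretches (4.5 Mb), and chromosomes 1, 8, 14 and 16 had 6 each (3.5, 4.1, 3.8 and 3.8 Mb). By share of the arm length examined, chromosome 16 led with 5.18%, followed by chromosome 14 with 4.46%. Chromosome 3 had 362 bins that reached the control limit and siORCA was under 2% in 71.5% of them, against 69.4% on all arms, while the other chromosomes without a stretch had lower shares, 64.4% on chromosome 6, 64.9% on chromosome 21 and 51.3% of only 39 such bins on chromosome 13. Within 5 Mb of a chromosome end lay 8 of the 51 stretches and 15.2% of their bins, against 7.18% of all arm bins and 9.22% of the arm bins that met both limits.

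Several stretches were close neighbours. Of 35 successive stretches on a shared chromosome, 10 were under 2 Mb from the one before. On chromosome 14 the stretches ending at 60.6 Mb and starting at 60.7 Mb were split by a single bin, with 0% in siORCA and 4.13% in the control, just under the control limit. The same held on chromosome 15 between 25 and 25.1 Mb, with 0.242% in siORCA and 3.603% in the control. Between the stretches of chromosome 8 that end at 135.1 Mb and start at 135.7 Mb, siORCA covered 1.51% and the control 16.8%. On chromosome 16, 4 of its 6 stretches lay between 8.3 and 14 Mb.

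siORCA peaks numbered 547 over the 31 Mb of the stretches and 37150 over the other 2433.64 Mb of the arms. They were thus not sparser in the stretches, where the limit was on covered length. Those in the stretches had a median width of 273 bp, against 329 bp for the others. Their median fold over background, as the authors' caller gave it, was 3.09, against 3.20, and their median −log10 q was 1.43, against 1.56. The widest, 1411 bp with a fold of 3.12, lay on chromosome 11 between 43106910 and 43108320. Of the 547, 13 were 1 kb or wider. A limit of 2% leaves at most 2 kb of siORCA peaks per bin, so wide siORCA peaks were kept out by the choice of the stretches and these values describe what it left. Folds of the siORCA and control lists were not compared with each other.

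Most of these siORCA peaks lay on or beside control peaks. Of the 547, 335 shared 1 bp or more with a control peak (61.2%, with a Wilson interval at 95% of 57.1 to 65.2%), against 56.2% of other siORCA arm peaks, and 90.1% lay within 3 kb of a control peak, against 77.6%. Control peaks are denser in the stretches than on the other arms by the way the stretches were chosen, and no allowance was made for that. The siORCA peak with the highest fold, 4.97, was 184 bp on chromosome 1 from 13829774 to 13829957 and lay wholly on control peaks. The next highest, with a fold of 4.82, was a siORCA peak of 734 bp on chromosome 1 from 115163655 to 115164388. It covered 87.4% of the control peak with the highest fold, 4.60, and a −log10 q of 15.6, a peak of 135 bp from 115163638 to 115163772. This narrow site, marked in both lists, was chosen for mention by its fold.

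The control peaks inside the stretches were close in width and fold to other control peaks of the arms. The 4316 control peaks that touched a stretch had a median width of 518 bp, against 491 bp for the 97888 other arm peaks. Their median fold was 2.67 (quartiles 2.52 and 2.86), against 2.71 (2.57 and 2.89). Their median −log10 q was 1.65, against 1.67, where the lowest in the list was 1.00. A −log10 q of 2 was reached by 1054 of the 4316, against 65008 of 181157 in the whole control list. The highest fold was 4.60 in the stretches and 8.44 among the far more numerous peaks of the other arms. Peaks of 1 kb or more made up 29.5% of control peaks in the stretches, against 26.5% on the other arms, and held 69.7% of the control peak length in the stretches, against 68.1%. Among control peaks of that width, the highest folds were 3.82 (chromosome 5, 126670680 to 126672528), 3.68 (chromosome 11, 116016964 to 116020024) and 3.67 (chromosome 1, 227060206 to 227063389). Joined over gaps of 3 kb, siORCA peaks formed 0 domains of at least 20 kb, with a longest joined span of 6.53 kb, and control peaks formed 44 (1.82 Mb) in 17 of the stretches. The limit on siORCA coverage all but bars a siORCA domain of that length.

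Seen from the control list, 302 of 4316 control peaks in the stretches met a siORCA peak (6.997%, interval 6.27 to 7.80%), against 17.4% of control peaks on the other arms. By length, 2.52% of the control peaks in the stretches was also covered in siORCA, against 13.4%. Both gaps follow from the limit on siORCA coverage. The pattern by peak width inside the stretches ran the same way as on the other arms. Control peaks under 300 bp met a siORCA peak in 2.05% of cases in the stretches and in 8.41% elsewhere, and those of 3 kb or more in 33.2% and 62.3%. Control peaks that met a siORCA peak were wide, with a median of 1842.5 bp, against 488 bp for those that did not, and a wider peak offers more bases to be met. The share of length met was 1.27% in the narrowest class and 3.59% in the widest, against 6.09% and 23.8% on the other arms. By fold, 2.12% of the 942 control peaks under 2.5 met a siORCA peak in the stretches, against 7.80% on the other arms. Among the 510 control peaks with a fold of 3 to 3.5 the share was 20.2%, against 31.5% on the other arms. These intervals account for counting error alone, with each peak taken as independent of its neighbours.

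**Figure D4:**
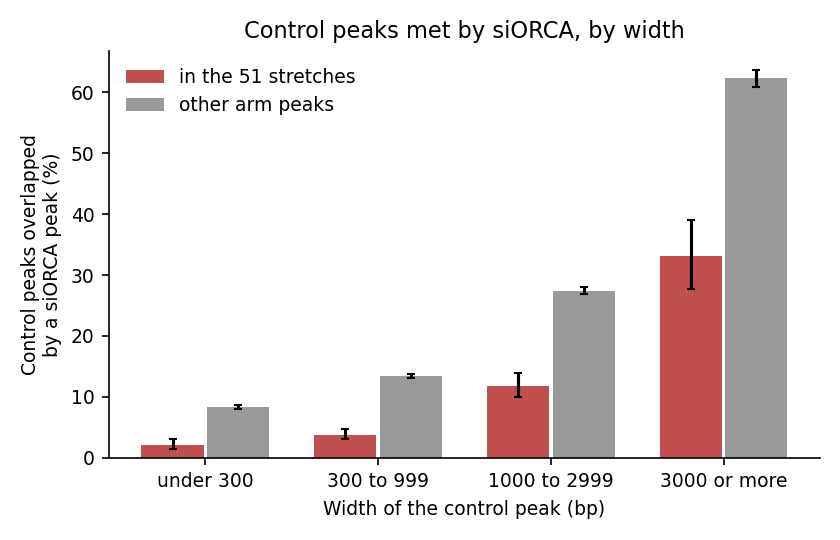
Percentage of control peaks overlapped by at least 1 bp of a siORCA peak, by width of the control peak in bp, in the 51 stretches (red) and on the other arms (grey), with 95% Wilson intervals. In each width class the red bar is lower, from 2.05% against 8.41% under 300 bp to 33.2% against 62.3% at 3000 bp or more.

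At most edges of the stretches the neighbouring bin fell under the control limit. Of 102 edges, 81 were set by a neighbouring bin with control coverage under 5%, where siORCA coverage had a median of 0% and control coverage a median of 2.70%. At 19 edges control coverage went on and siORCA coverage passed its limit: the neighbouring bins had a median of 3.22% in siORCA, at most 5.65%, and a median of 20.3% in the control. A bin beside a stretch must fail a limit. Over all arms, 3719 of 24656 bins met both limits and 19299 had a control coverage under 5%. Among arm bins that failed a limit, those failing the siORCA limit alone were thus a smaller share than at the edges. At 1 edge both limits failed, and 1 edge was the start of the examined part of chromosome 15. Accordingly, 16 of the 51 stretches were parts of longer control runs.

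Around the stretches, control coverage stayed above the arm average. From the second bin outward, 4 to 7 of the 100 bins at each distance lay in other stretches. These were left in and had been chosen for their control coverage. In the bins next to an edge, coverage averaged 0.812% in siORCA and 6.34% in the control, and 900 to 1000 kb away it averaged 1.35% in siORCA and 6.74% in the control. All arm bins averaged 0.855% in siORCA and 3.94% in the control. The siORCA medians ran the other way, with 0.454% in the outermost bins of the stretches, 0.102% in the bins next to them and 0.208% at 900 to 1000 kb, so that a minority of bins carried the higher means outside. The ratio of siORCA to control was 0.128 in the bins next to an edge and 0.1996 in the farthest bins, against 0.0429 inside the stretches and 0.217 over all arms. Because a bin beside a stretch failed one of the limits, a step at the edge is built into the choice.

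**Figure D5:**
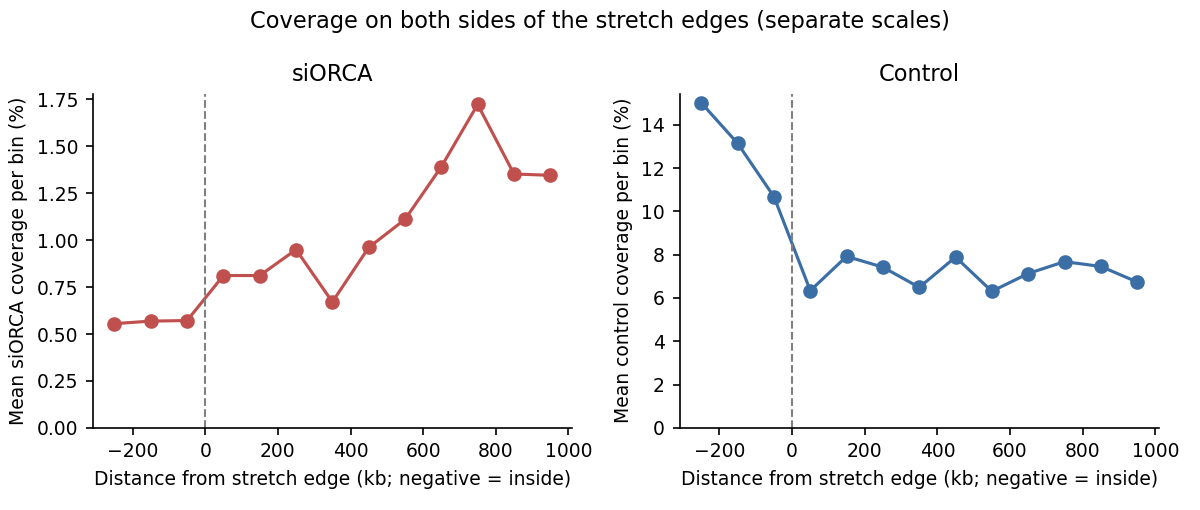
Mean coverage per 100 kb bin in siORCA (left) and control (right) against distance from the stretch edges in kb, with negative distances inside the stretch and separate linear scales. Outside bins that lay in other stretches were left in. Mean siORCA coverage is 0.572% just inside, 0.812% just outside and 1.35% at 900 to 1000 kb, while its medians are 0.454%, 0.102% and 0.208%, and mean control coverage goes from 10.7% just inside to 6.34% just outside and 6.74% at 900 to 1000 kb.

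On the same arms, 31 chains of at least 5 bins met the control limit and had 2% or more siORCA coverage in every bin. The nearly empty stretches had 0.577% in siORCA and 13.5% in the control, and these retained chains had 14.9% in siORCA and 40.8% in the control, a ratio of 0.365. Control peaks had a median width of 518 bp in the stretches and 748 bp in the retained chains, and reached a fold of 4.60 in the stretches and 6.01 in the retained chains. Both sets were chosen on coverage, and their densities differed, so this is a description of 2 selected sets.

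Near the limits the choice was fine-grained. The member bin closest to the control limit had 0.193% in siORCA and 5.01% in the control, and the closest bin left out at an edge had 1.22% in siORCA and 4.90% in the control. The member bin closest to the siORCA limit had 1.98% in siORCA and 37.3% in the control, and the closest bin left out at an edge had 2.08% in siORCA and 7.04% in the control. There were 23 chains of 5 bins, with 0.519% in siORCA and 10.8% in the control, and 60 chains of 4 bins just short of the required length, with 0.577% in siORCA and 11.9% in the control. With the bin grid moved by 50 kb, 50 stretches were found, and 22 of the 51 shared any base with them. Cutting the control list by −log10 p until both lists covered the same arm length left 0 stretches. In that setting the 51 regions were covered over 0.577% in siORCA and 1.99% in the control, a ratio of 0.289, and siORCA was lower in 42 of them. The same cut set the ratio over all arm bins to 1.00. The siORCA list was unchanged and the regions had been chosen for low siORCA and high control coverage. The choice itself therefore favours a lower ratio there, and these values are no separate check of the difference.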

How the data were processed

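The samples were H3K27me3 ChIP-seq libraries of U2OS cells, 1 per condition. Per the submitters' processing notes, the tools were Trimmomatic, bcl2fastq, SAMtools and Bowtie2 (no versions), with T2T-CHM13 as the build. The peak caller, and whether the input was used, is not given in the sources used here. The authors deposited 1 broadPeak list per ChIP library, with no pooling. The deposited fold of each peak is a ratio over background. The deposited −log10 p and −log10 q values and the deposited score were taken as they stand, and the score was not used. The lowest −log10 q was 1.00 in each list. The read depth is unknown, so no precision could be derived from it.

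Bins of 100 kb were laid from 0, and covered length was summed within them (Python 3.11.15, pandas 2.3.3). The last peak end stood for each chromosome end. Peaks touching a stretch by at least 1 bp were used, and domains joined peaks at most 3 kb apart. Regions were named by rank of length, coverage, width and fold. The members and lists were chosen with earlier results of these data known. As a check of the code only, 6 of 6 stretches planted in simulated lists, well clear of both coverage limits, were found. On chromosome 21 overlaps counted base by base differed for 0 of 2369 control peaks. Alternatives on peak limits, bins and run length are in the closing section. Gene lists were not analysed here.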

Additional observations from a re-analysis of the deposited data

How the results depend on the processing

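No paired analysis was possible because each condition had 1 library, and for the same reason no library could be left out. The number of stretches (51) and their length (31 Mb) depended on nearly every limit. They were 32 and 20 Mb with a −log10 q of at least 2 in both lists, 2 and 1 Mb with a fold of at least 3, 19 and 11.2 Mb with equal numbers of peaks, and 0 and 0 Mb with equal covered length on the arms. They were 4 and 2.3 Mb with 50 kb bins in runs of 10, 8 and 5.3 Mb with a control limit of 10%, 21 and 11.7 Mb with a siORCA limit of 1%, 100 and 65.3 Mb with a siORCA limit of 4%, 111 and 55 Mb with runs of at least 4 bins, and 6 and 5.7 Mb with runs of at least 8. Only the grid moved by 50 kb kept both within 1.5 times (50 and 30.7 Mb), but 22 of the 51 shared a base with the stretches found. A stricter coverage limit, a longer run or a cut of the control list alone can only lower the total length. The limits on q and fold cut both lists, and fewer siORCA peaks make the siORCA limit easier to meet. With the limit on q, 8 of the 51 shared a base with the 32 stretches found. The siORCA limit of 4% and runs of at least 4 bins keep all 51 by construction. Over the other 9 settings, the stretch on chromosome 16 from 25.9 to 27 Mb was found in 6, the most of any. Another 11 stretches were found in 0.

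In the same 51 regions, the ratio of siORCA to control (0.0429) was 0.0128 with the limit on q, 0.101 with the limit on fold, 0.0600 with equal numbers and 0.289 with equal covered length. The ratio over all arm bins (0.217) moved the same way, to 0.154, 0.525, 0.291 and 1.00. Of the control peak length in the 51 regions, the part that siORCA peaks also covered (2.52%) became 0.524%, 2.75%, 2.95% and 6.02% under these settings. By number, 6.997% of control peaks were overlapped by 1 bp and 0.857% over at least 50% of their length. For these shifts the cause was not tested. Depth was not known, and peaks missing from a list were not shown to be missing from the cells.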

Other observations

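Arm bins that met both limits but lay in runs of fewer than 5 were far more numerous than the bins of the stretches. There were 3409 of them, 340.9 Mb in all, with 0.599% covered in siORCA and 9.30% in the control, and 1797 of the runs were single bins. In the opposite direction, 17 of 24656 arm bins had a siORCA coverage of at least 5% with a control coverage under 2%. The longest run of such bins was 2, so the reverse limits gave 0 stretches on the same arms. Over all arm bins siORCA peaks covered 0.855% and control peaks 3.94%, so the reverse limits are harder to meet and the 2 directions are not comparable. With no limit on either list, 2347 of 24656 arm bins had more siORCA than control length.

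Among all arm bins with siORCA coverage under 2%, mean siORCA coverage was higher where control coverage was higher. It was 0.129% where the control covered under 1%, with 68.8% of those bins holding no siORCA base. It was 0.516% at a control coverage of 5 to 10%, 0.739% from 10 to 20% and 1.06% at 20% or more. In the bins of the 51 stretches the values for the last 3 classes were 0.385%, 0.716% and 0.877%. The siORCA limit caps each of these means.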
